A study of Mus musculus with 2 samples.

Results

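The 10 genes described here encode the parts that build an MHC class I molecule and load it with peptide, together with 1 regulator of their transcription. They were taken by symbol from a named list (B2m, H2-K1, H2-D1, Tap1, Tap2, Tapbp, Psmb8, Psmb9, Psmb10 and Nlrc5), and all 10 were found among the 15623 genes listed in the NT or the IL-4 library. Wild-type C57BL/6 mice were injected in the peritoneum with 4% thioglycolate, an irritant that draws macrophages into the cavity. After 4 to 5 days the lavaged cells adhered for 4 h and were starved in medium with 0.5% serum. One culture was left nontreated (NT), the other received mouse interleukin-4 (IL-4) for 6 h, and both carried the same genotype. Each group held 1 library, the number of mice behind it was not given, and the labels name both peritoneal macrophages and bone marrow as the origin. No difference below was therefore checked against the spread between replicates.

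MHC class I molecules show fragments of cytosolic proteins at the cell surface, where CD8 T cells and natural killer cells read them. The proteasome cuts the proteins, the TAP transporter carries the peptides into the endoplasmic reticulum, and tapasin holds the empty class I molecule at TAP until a peptide binds. In cells exposed to interferon the catalytic subunits of the proteasome are exchanged for immune subunits, and NLRC5 drives transcription of the class I genes from a conserved promoter module. Macrophages express the whole pathway and can present peptides on class I molecules.

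Depth was close to equal, at 11035641 (NT) and 11250099 (IL-4) expected counts. An expected count is the estimated number of reads that belong to a gene, and FPKM is that number scaled for transcript length and depth, so that levels of different genes can be set side by side. All 7 macrophage markers examined were listed in both libraries, with summed levels of 16984 CPM (counts adjusted to equal library size) in NT and 17355 CPM in IL-4. The marker lists of resident peritoneal macrophages, neutrophils, B cells, T or NK cells, mast cells, eosinophils, dendritic cells and mesothelial cells each summed to under 10 CPM in both libraries. The adipocyte list went from 0 CPM to 12.4 CPM through Adipoq alone, with Plin1 and Lep not listed. Among markers with at least 50 counts Adipoq, with 0 counts in NT and 139 in IL-4, was called higher (log2 ratio 8.10). Csf1r, the receptor for macrophage colony-stimulating factor, was also called higher (log2 ratio 0.90). Siglecf, an eosinophil and macrophage lectin, was called lower (log2 ratio -0.99). The part of these markers in the results below was not tested. In such bulk RNA, fewer cells of a type and less RNA per cell cannot be told apart.

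Of the 10 genes, 2 (Psmb10 and Psmb9) were called higher with IL-4, 1 (Nlrc5) was called lower and 7 were not called. With a trend of the ratio with transcript length subtracted, as described at the end, only Psmb10 was called. A call required a log2 ratio (IL-4 over NT) of 0.75 or more in size, the fold used by the study, and a 95% interval of counting error that excluded 0. By that rule 4.07% of all 15593 genes with reads were called higher and 6.28% were called lower. Among the 9925 genes with at least 50 counts in the library with more, the shares were 4.32% and 6.83%. The same shares are the comparison for the calls counted in the gene lists below. The 10 genes had a median ratio of 0.19 on the log2 scale, beside -0.03 over all genes with reads and -0.01 over those 9925 genes. With the length trend subtracted the median of the 10 was 0.041. The calls compare these libraries and not the conditions, since 1 library per group gives no test. Intervals are exact Clopper-Pearson intervals and cover counting error only, with reads treated as independent. Reads copied by PCR and not tagged by molecule are not independent, so the intervals can be too narrow. The uncertainty of dividing reads between related genes is not covered either.

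The promoter stretches below show how the members differ in the sequence next to their starts. They are read 5′ to 3′ on the strand of the gene and end at the base before the RefSeq transcript start (GRCm38.p6). Those of H2-K1 (chr17:34000348-34000517, minus strand), H2-D1 (chr17:35262864-35263093, plus strand) and B2m (chr2:122147517-122147686, plus strand) are shown as the genes of the class I molecule itself. That of Psmb9 (chr17:34187331-34187555, minus strand) covers the 225 bases between the divergent starts of Psmb9 and Tap1, and that of Psmb10 (chr8:105938393-105938562, minus strand) belongs to the member with the highest ratio. The H2-K1 start used (34000347) lies inside the span of the gene, which reaches to 34000619. Capitals mark matches to the motifs named in the next paragraph.
H2-K1: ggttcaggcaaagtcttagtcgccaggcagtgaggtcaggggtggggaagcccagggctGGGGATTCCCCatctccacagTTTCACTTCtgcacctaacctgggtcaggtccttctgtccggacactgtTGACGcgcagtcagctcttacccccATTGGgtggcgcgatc
H2-D1: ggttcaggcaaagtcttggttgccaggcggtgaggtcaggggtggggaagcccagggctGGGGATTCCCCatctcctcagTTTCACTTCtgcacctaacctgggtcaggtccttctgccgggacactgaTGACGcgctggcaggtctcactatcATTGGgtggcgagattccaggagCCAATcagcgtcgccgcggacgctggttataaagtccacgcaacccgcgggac
B2m: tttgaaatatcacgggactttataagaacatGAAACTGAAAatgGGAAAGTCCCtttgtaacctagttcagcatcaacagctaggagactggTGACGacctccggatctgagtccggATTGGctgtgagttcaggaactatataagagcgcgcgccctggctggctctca
Psmb9: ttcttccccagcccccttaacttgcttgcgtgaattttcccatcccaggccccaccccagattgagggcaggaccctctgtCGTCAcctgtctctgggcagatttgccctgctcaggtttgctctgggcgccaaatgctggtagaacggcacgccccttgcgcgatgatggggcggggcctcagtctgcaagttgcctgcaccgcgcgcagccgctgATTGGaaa
Psmb10: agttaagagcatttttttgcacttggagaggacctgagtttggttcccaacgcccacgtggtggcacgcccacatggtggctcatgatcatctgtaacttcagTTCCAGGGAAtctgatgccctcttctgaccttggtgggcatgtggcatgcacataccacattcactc

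Both strands were searched for TGACG, the core of the CRE, for the CCAAT box and for the NF-kB consensus. The interferon response core was searched as GAAA repeated after any 2 bases. A shorter form of that core was searched as GAANNGAAA, in which N is any base. The GAS site of STAT factors was searched as TTCNNNGAA, and the STAT6 site has the same ends with any 4 bases between them. The search covered the 250 bases before the start, and 8 of the 10 genes had such a window. Windows for Nlrc5 and Tap2 were not used. TGACG and CCAAT were each found in the windows of B2m, H2-K1, H2-D1, Tap1 and Psmb9, while over all 32851 windows TGACG was found in 17.8% and CCAAT in 33.8%. TGACG began at base -78 and CCAAT at base -53 before the start in B2m, at -41 and -16 in H2-K1, and at -101 and -76 in H2-D1, so that the spacing was equal in these 3 genes. In Psmb9 they began at -144 and -8, and in Tap1, which holds the same bases read from the other end of the stretch, the order was reversed (-86 and -222). In class I promoters, CRE and CCAAT letters at close spacing are parts of the conserved module through which NLRC5 acts, and the distances in Psmb9 and Tap1 were not those of the 3 class I genes. The NF-kB consensus was found in B2m, H2-K1 and H2-D1 and in 7.25% of all windows. Matches to the NF-kB consensus in H2-K1 and H2-D1 overlap each other. The interferon response core was found in B2m (2.98% of all windows), and its shorter form in H2-K1 and H2-D1 (6.31%). In Psmb8 the only match was the GAS site (7.02% of all windows), and Tapbp held CCAAT alone. The Psmb10 window held none of the class I motifs and 1 match to the STAT6 site, TTCCAGGGAA, from base -67 to base -58 before the start, a motif found in 5.85% of all windows. Aligned with each other, the H2-K1 and H2-D1 stretches had 154 identical bases in 170 aligned positions (90.6%). Repeat sequence was not marked or left out in any window. Whether the Psmb10 match lies in a repeat, for which the share over all windows would be a poor comparison, was not tested. A match is a run of letters and not a measured binding site.

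The class I molecule was highly abundant in both libraries and differed little between them. B2m, the invariant light chain (gene 12010, chromosome 2, 122147687 to 122153082, GRCm38), had 42878 expected counts in NT and 50198 in IL-4, or 4645 and 5331 FPKM. That placed it at rank 11 of 14842 listed genes by FPKM in NT and at rank 10 of 14717 in IL-4. Its log2 ratio was 0.20 (interval 0.18 to 0.22), below the size required for a call.

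H2-D1 (gene 14964, chromosome 17, 35263094 to 35267497), a classical heavy chain, had 60081.79 expected counts in NT and 59896.74 in IL-4, or 3146 and 3075 FPKM. Its rank was 14 in both libraries, and the log2 ratio was -0.03 (interval -0.05 to -0.02). The other classical heavy chain, H2-K1 (gene 14972, chromosome 17, 33996012 to 34000619), had 12791.86 expected counts in NT and 14692.72 in IL-4, or 697 and 785 FPKM. Its log2 ratio was 0.17 (interval 0.14 to 0.21). H2-D1 thus stood above H2-K1 in both libraries, by 4.51 times in FPKM in NT and 3.92 times in IL-4.

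Separate values for the heavy chains rest on divided reads, since both counts are not whole and the copies share sequence. Of the 31-base words of the H2-K1 transcript, 23.3% also occurred in transcripts of other genes, and 16.9% occurred in H2-D1. For H2-D1 the share in other genes was 27.7%. Summed, H2-K1 and H2-D1 had a log2 ratio of 0.01 (interval -0.01 to 0.02), and all 18 listed heavy chain genes had 0.03 (interval 0.02 to 0.05). The summed heavy chains took 0.754% of all counts in NT and 0.772% in IL-4. B2m and Psmb10 shared none of these words with another gene.

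The heavy chain list, classical chains included, held 32 genes, of which 18 were listed in a library and 14 had at least 50 counts in the library with more. Of these 14, only H2-Q9 was called, and below that count H2-Q6 was. With the length trend subtracted H2-Q9 had a value of 0.67 (interval 0.13 to 1.28), under the size of a call. H2-T23, which encodes Qa-1, a ligand of NK cell receptors, was the most abundant after the classical chains, with 408 FPKM in NT and 496 FPKM in IL-4 (log2 ratio 0.29). H2-T22, a ligand of some gamma delta T cell receptors, had 70.2 and 79.9 FPKM (log2 ratio 0.19), and H2-Q4 had 59.7 and 69.0 FPKM (log2 ratio 0.21). With words matched as above, the share in other genes was 49.3% for H2-T23, 63.3% for H2-T22 and 58.4% for H2-Q4. Of the H2-T22 words, 55.8% occurred in H2-T10. The counts of H2-T23, H2-T22, H2-Q4 and H2-T10 were not whole, so their separate values are uncertain. The noncalled log2 ratios were 0.00 for H2-K2, 0.14 for H2-T10, 0.18 for H2-Q5, 0.17 for H2-Q8, 0.48 for H2-M2 and 0.29 for H2-M3, which presents formylated peptides. H2-T24 had the lowest ratio of the 14, -0.44 (interval -0.61 to -0.28), from 700.97 to 526.49 counts.

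The Qa-2 genes H2-Q6 to H2-Q9 had few counts, and among them shared words were counted for H2-Q7 alone. The counts of H2-Q7, H2-Q8 and H2-Q9 were not whole. H2-Q9 had 42.21 counts in NT and 75.55 in IL-4 (log2 ratio 0.80), and H2-Q7 had 76.97 and 127.02 (log2 ratio 0.69). H2-Q6 had 28.85 counts in IL-4 and was not listed in NT. Between 34.5% and 52.6% of the 31-base words of the H2-Q7 transcripts occurred in other genes, so the separate values are uncertain. The 4 genes together had 163.91 counts in NT and 282.75 in IL-4, a log2 ratio of 0.76 (interval 0.48 to 1.05). This lay just past the size of a call, and the interval included that size. The length trend, from 0.13 for H2-Q9 to 0.20 for H2-Q6, was not subtracted from the sum.

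Among other proteins that pair with B2m, 4 genes had at least 50 counts. Hfe, which binds the transferrin receptor and controls iron uptake, was called higher with 176 counts in NT and 420 in IL-4 (log2 ratio 1.22, interval 0.97 to 1.49). The other 3 genes had log2 ratios from -0.20 to 0.00.

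**Figure D1:**
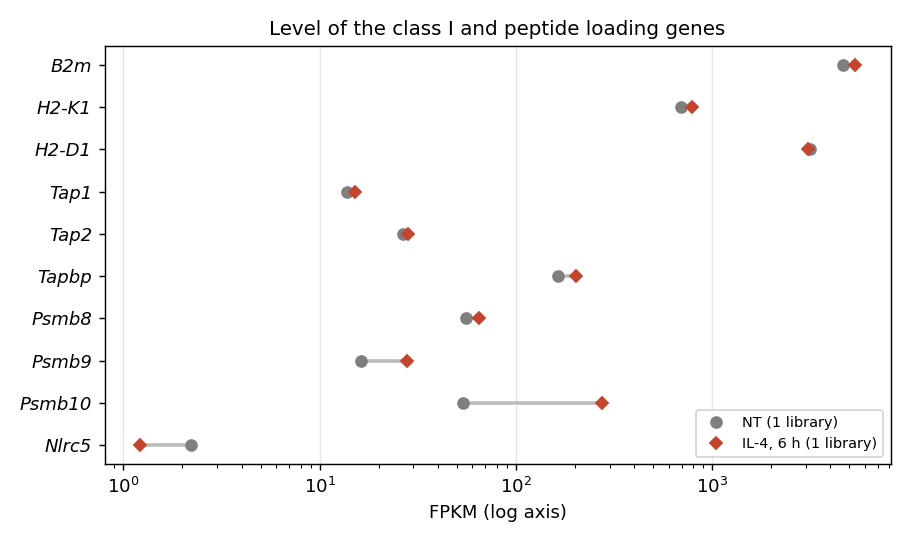
Level of each of the 10 genes in FPKM on a log axis, with a circle for the NT library and a diamond for the IL-4 library. Only Psmb10 (53.8 to 274 FPKM), Psmb9 (16.2 to 27.9 FPKM) and Nlrc5 (2.20 to 1.22 FPKM) show a wide gap, and the genes span from 1.22 to 5331 FPKM.

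The transporter and loading genes were close to equal in both libraries, and none of 9 genes on the list was called. Tap1 (gene 21354, chromosome 17, 34187556 to 34197225), a subunit of the peptide transporter, had 451.44 expected counts in NT and 506.93 in IL-4, or 13.8 and 15.2 FPKM. Its log2 ratio was 0.14 (interval -0.04 to 0.33), so a difference was not detectable at this depth. Tap2 (gene 21355, chromosome 17, 34204479 to 34216321), its partner subunit, had 732.56 and 796.07 expected counts, or 26.6 and 28.3 FPKM.

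The log2 ratio of Tap2 was 0.09 (interval -0.06 to 0.24), which again included 0. The fractions of Tap1 and Tap2 complete each other, since their sums were 1184 in NT and 1303 in IL-4. The transcripts share 44 words of 31 bases, 1.70% of those of the shorter Tap1 transcript, and the sum had a log2 ratio of 0.11 (interval -0.00 to 0.23). Tap2 exceeded Tap1 by 1.93 times in FPKM in NT and by 1.86 times in IL-4. These ratios depend on the deposited Tap2 length of 2490 bases, beside a GENCODE transcript of 3442 bases, and would be smaller with the latter.

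Tapbp (gene 21356, chromosome 17, 33919478 to 33929290), which encodes tapasin, had 5009.05 expected counts in NT and 6259.64 in IL-4, or 164 and 201 FPKM. Its log2 ratio of 0.29 (interval 0.24 to 0.35) was the highest among the 7 uncalled members. Tapasin mRNA was 11.9 times that of Tap1 in FPKM in NT and 13.3 times in IL-4. Tapbpl, which encodes a tapasin-like peptide editor, had a log2 ratio of 0.26. Chaperones and folding enzymes of the endoplasmic reticulum had log2 ratios of -0.06 (Calr), 0.06 (Canx), 0.07 (Pdia3), 0.19 (Hspa5) and -0.24 (Uggt1). With the length trend subtracted Uggt1, with 9045 bases, had 0.23 (interval 0.15 to 0.32), while the others kept their sign.

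Of 7 enzymes that trim or destroy peptides, 1 was called higher and 1 lower. Beside this small list, 4.32% of all genes with at least 50 counts were called higher and 6.83% lower. Lap3, a cytosolic leucine aminopeptidase, had 281 counts in NT and 570 in IL-4 (log2 ratio 0.99, interval 0.78 to 1.20). Lnpep, the endosomal aminopeptidase IRAP, had 649 and 327 counts (log2 ratio -1.02, interval -1.21 to -0.82). The other 5 genes, with the reticulum aminopeptidase Erap1 at 0.09 among them, ranged from -0.48 to 0.20.

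The immune subunits of the proteasome held the largest difference. Psmb10 (gene 19171, chromosome 8, 105935728 to 105938392), which replaces the trypsin-like subunit, had 746 expected counts in NT and 3879 in IL-4, or 53.8 and 274 FPKM. It moved from rank 1258 to rank 260 by FPKM. The difference was 5.10-fold, a log2 ratio of 2.35 (interval 2.24 to 2.47), higher than that of 99.3% of genes with at least 50 counts. Both counts were whole, and no other gene of the RefSeq table overlaps Psmb10.

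Psmb9 (gene 16912, chromosome 17, 34182030 to 34187330), which replaces the caspase-like subunit, had 140 expected counts in NT and 246 in IL-4, or 16.2 and 27.9 FPKM. The difference was 1.72-fold, a log2 ratio of 0.78 that lay just past the size for a call, and its interval of 0.48 to 1.10 included that size. Tap1, transcribed in the opposite direction from the other end of the Psmb9 stretch shown above, had a lower ratio, and the intervals of the pair did not overlap. With the length trend described below subtracted, the values were 0.59 (interval 0.29 to 0.90) for Psmb9 and 0.11 (interval -0.08 to 0.29) for Tap1, and the intervals then overlapped narrowly. The GENCODE transcript of Psmb9 has 1352 bases, beside a deposited length of 806 bases. It shares 13.8% of its 31-base words, matched on either strand, with a Tap1 transcript, although both Psmb9 counts were whole.

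Psmb8 (gene 16913, chromosome 17, 34198195 to 34201454), which replaces the chymotrypsin-like subunit, had 745 expected counts in NT and 885 in IL-4, or 55.9 and 65.1 FPKM. Its log2 ratio was 0.22 (interval 0.08 to 0.36) and it was not called. In NT, then, Psmb8 and Psmb10 had nearly the same count, and in IL-4 Psmb10 had the higher one by far. The difference in log2 ratio among these 3 genes exceeded their counting intervals, none of which overlapped another.

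Each immune subunit was also set against the constitutive subunit it replaces, as a ratio of FPKM within a library, with a normal approximation of the counting interval. For Psmb10 over Psmb7 the ratio was 0.692 in NT and 2.73 in IL-4, a log2 change of 1.98 (interval 1.81 to 2.15). For Psmb9 over Psmb6 it was 0.0799 and 0.131, a log2 change of 0.71 (interval 0.40 to 1.02). For Psmb8 over Psmb5 it was 0.561 and 0.570, a log2 change of 0.02 (interval -0.16 to 0.21). Of these 6 ratios, that of Psmb10 in the IL-4 library was the only one above 1. The ratios within a library depend on the deposited lengths. Psmb8 had 1223 bases there beside a GENCODE transcript of 1628, and Psmb9 had 806 beside 1352. None of the 3 constitutive subunits was called, with log2 ratios of 0.20 for Psmb5, 0.08 for Psmb6 and 0.37 for Psmb7. The remaining genes of the immunoproteasome list (Psme1, Psme2 and Pomp, the PA28 activator subunits and an assembly factor) were not called, with log2 ratios of 0.29, 0.46 and 0.34.

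**Figure D2:**
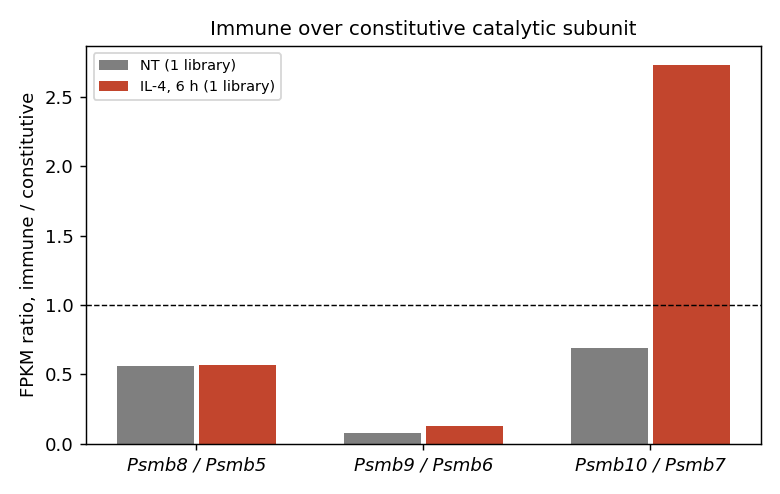
FPKM of each immune catalytic subunit divided by that of the constitutive subunit it replaces, with a grey bar for the NT library and a red bar for the IL-4 library (1 library each, no error bars). Psmb10 over Psmb7 goes from 0.692 to 2.73, past the dashed line of equal FPKM, while Psmb8 over Psmb5 stays at 0.561 and 0.570.

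Nlrc5 (gene 434341, chromosome 8, 94434335 to 94527272), the transactivator of class I genes, had 171 expected counts in NT and 97 in IL-4, or 2.20 and 1.22 FPKM. By FPKM it was the least abundant member in both libraries. Its log2 ratio was -0.84 (interval -1.22 to -0.48), which was called lower, although the interval included -0.75. Beside lower Nlrc5, the ratios of B2m, H2-K1, H2-D1, Tap1 and Tap2 were between -0.03 and 0.20. Those of Psmb8 (0.22), Tapbp (0.29), Psmb9 (0.78) and Psmb10 (2.35) were higher. With the length trend described below subtracted, Nlrc5 had -0.49 and was not called.

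Of 14 transcription factors linked to class I promoters, 1 was called higher, 1 was called lower and 12 were not called. All 14 had at least 50 counts, and of all such genes 4.32% were called higher and 6.83% lower. A list of this size is too small to tell its counts from those shares. The gene called higher was Irf1, an interferon-regulated activator of class I and immunoproteasome genes, with 526 counts in NT and 1352.96 in IL-4 (log2 ratio 1.33, interval 1.19 to 1.48). The gene called lower was Nlrc5. The others, which include the RFX and NF-Y subunits and the NF-kB genes Nfkb1 and Rela, had log2 ratios from -0.39 to 0.51. Of 7 genes of MHC class II presentation examined beside them, 0 were called, and the 6 with at least 50 counts had log2 ratios from -0.19 to just under the size of a call. H2-DMb2, a class II gene near Psmb9 and outside that list, was called higher on fewer than 50 counts. It had 16.52 counts in NT and 44.82 in IL-4 (log2 ratio 1.39, interval 0.54 to 2.27).

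**Figure D3:**
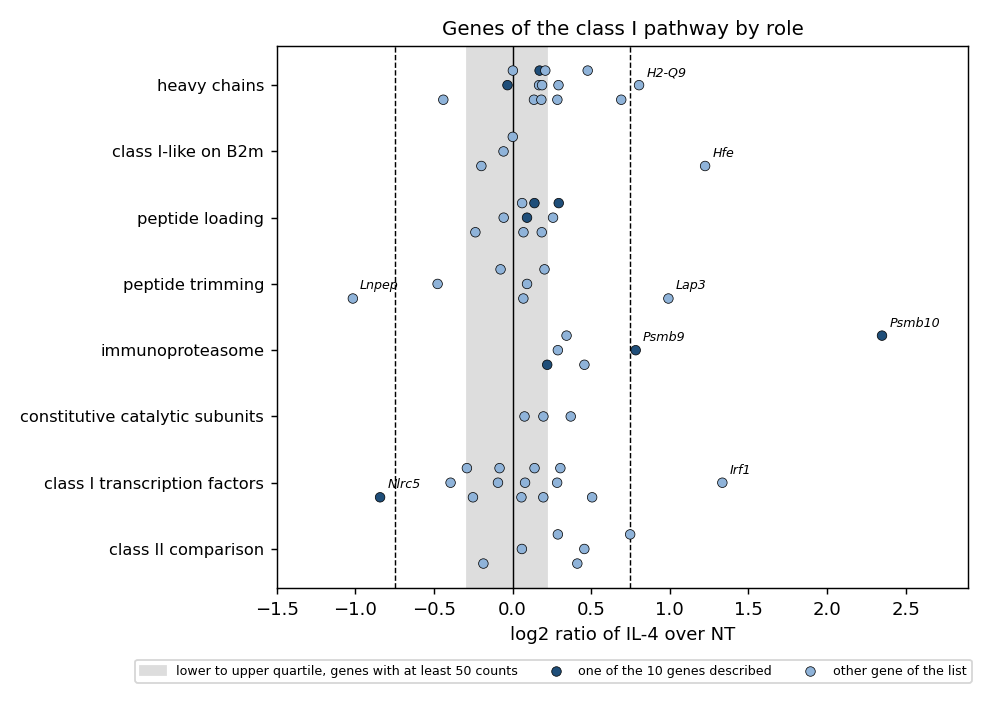
Log2 ratio of IL-4 over NT for each gene with at least 50 counts, by role in the pathway, with dark points for members, names on called genes and a grey band for the quartiles of all genes with at least 50 counts. Most points lie between the dashed lines at 0.75 in size, and Psmb10 at 2.35 lies farthest out, beyond Irf1 at 1.33 and Hfe at 1.22.

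By position, 7 of the 10 members lie in the MHC region of chromosome 17, between 33919478 and 35267497. Within it Psmb9, Tap1, Psmb8 and Tap2 are neighbours, with log2 ratios of 0.78, 0.14, 0.22 and 0.09. The counting interval of Psmb9 overlapped none of the others, while those of Tap1, Psmb8 and Tap2 overlapped. The other called members, Psmb10 and Nlrc5, both lie on chromosome 8. B2m lies within the span of Patl2, which had 7 counts in NT and 6 in IL-4, and an lncRNA that overlaps Nlrc5 (9330175E14Rik) had 5 in each. Whether counting used strand was not given in the sources used here, so reads of overlapping genes may not be separated.

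Transcript length moved with the ratio across the libraries. When the 8461 genes with 200 or more reads were split into 10 groups by length, the median log2 ratio was 0.18 in the group of shortest transcripts and -0.44 in that of the longest. The members were described against this by subtracting the median over the 500 such genes closest to each in length. Nlrc5, with 6945 bases the longest member, then had a log2 ratio of -0.49 (interval -0.87 to -0.13) and was no longer called, and Psmb9, with 806 bases, lost its call as well. Psmb10, with 1270 bases, kept a value of 2.18 (interval 2.06 to 2.29). The ratio of B2m became 0.01 (interval -0.01 to 0.03), and that of H2-D1 became -0.16 (interval -0.17 to -0.14).

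**Figure D4:**
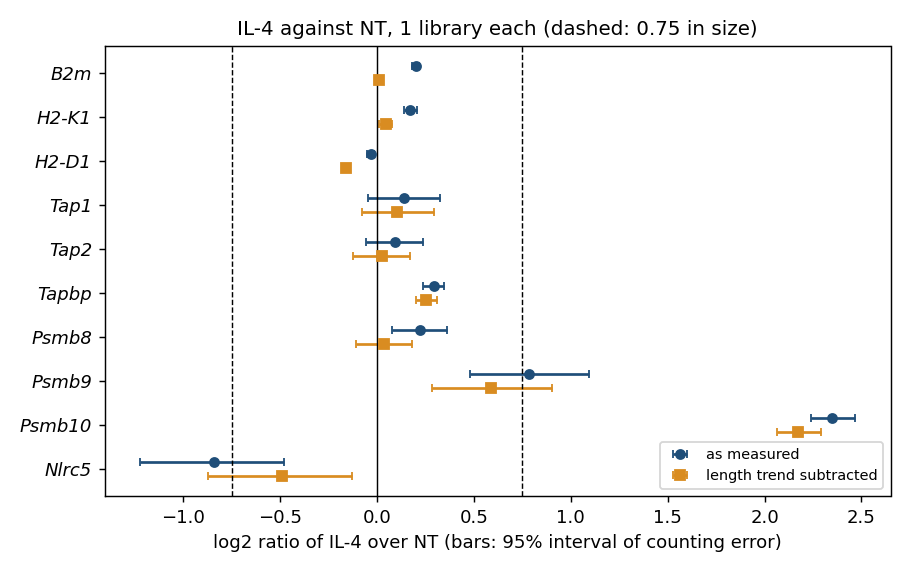
Log2 ratio of IL-4 over NT of each gene, as measured (circles) and with the length trend subtracted (squares), with 95% intervals of counting error and dashed lines at 0.75 in size. Psmb10 lies past the line in both forms (2.35 and 2.18), whereas Psmb9 (0.78 and 0.59) and Nlrc5 (-0.84 and -0.49) pass it only as measured.

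**Figure D5:**
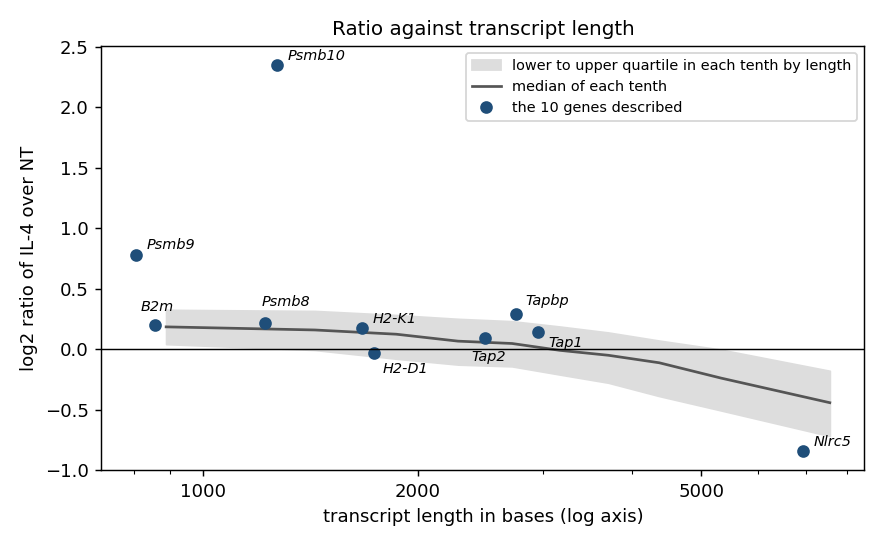
Log2 ratio of IL-4 over NT against transcript length on a log axis, with the median and quartiles of 8461 genes in 10 groups by length (line and band) and the 10 genes as points. B2m, Psmb8 and H2-K1 lie on or near the line, and Psmb10 lies far above it.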

How the data were processed

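RNA of 1 NT and 1 IL-4 library was sequenced on an Illumina HiSeq. The authors used Bowtie for mapping to GRCm38/mm10 and RSEM for quantification (versions not given in the sources used here). The deposited expected count is not scaled for depth, and whole values made up 77.6% (NT) and 77.8% (IL-4). The deposited FPKM is scaled for length and depth, and the deposited length of a gene in bases is weighted over its transcripts. A gene absent from a table was set to 0.

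Gene numbers were matched to symbols and coordinates through a RefSeq table of GRCm38.p6 (15587 of 15623). The log2 ratio used expected counts scaled to the library totals with 0.5 added, and intervals used rounded counts. The floor of 3 counts was 0.272 CPM in NT and 0.267 CPM in IL-4. No significance test between the libraries was made. The calls and intervals were tested on simulated data. The simulated counts held counting error only, so PCR copies, spread between replicates and divided reads were not tested. Shared words came from GENCODE M21 transcripts and were matched on either strand, and promoters came from RefSeq. Some GENCODE transcripts differ from the deposited lengths, as for H2-D1 with 2102 bases beside 1736. FPKM ratios between genes depend on the lengths used. Members and lists were chosen with earlier results of these data known. All members are named, and other list genes with at least 50 counts where called or of the heavy chain or loading list. Genes next to or overlapping members, and others given with a value outside that rule, were picked after their values were seen. Alternatives were TMM (edgeR 4.0.16) and median-of-ratios (DESeq2 1.42.0) scaling, FPKM with 0.1 or 1 added, a total that left out the 100 most abundant genes, filters, thresholds, a length trend and summed copies. Computation used R 4.3.3 and Python 3.11.15 with scipy 1.17.1, numpy 2.4.6, matplotlib 3.10.9 and pandas 2.3.3.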

Additional observations from a re-analysis of the deposited data

How the results depend on the processing

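No paired analysis was possible because only 1 library stood in each group, and leaving out a library was not possible either. Psmb10 kept its call under each alternative run, with a log2 ratio from 2.18 to 2.39. FPKM with 1 added lowered Psmb9 to 0.75 (just under the size of a call before rounding) and Nlrc5 to -0.53, so 1 member was called higher and 0 lower, beside 391 genes higher and 399 lower in all. With a log2 ratio of at least 1 required, Psmb9 (0.78) and Nlrc5 (-0.84) were not called, which left 1 member higher and 0 lower, beside 474 genes higher and 580 lower in all. With the length trend subtracted the values were 0.59 for Psmb9 and -0.49 for Nlrc5, again 1 member higher and 0 lower, beside 632 genes higher and 760 lower in all, and the median of the members was 0.041. The median was 0.22 with TMM, 0.21 with median-of-ratios scaling and 0.22 over the 5 members with whole counts, a filter under which 644 genes were lower in all. The median-of-ratios factors were 1 in both libraries, so that alternative amounts to counts not scaled for depth. The main values were 635 genes higher, 979 lower and a median of 0.19. The ratio of H2-D1 ran from -0.16 (length trend subtracted) to 0.03 (all listed heavy chains summed) and was called in no case. For the Psmb10 to Psmb7 ratio, 2 alternatives chosen after seeing the data (the length trend subtracted, and expected counts over length) gave log2 changes within the counting interval of 1.81 to 2.15. Why these values moved was not tested beyond the construction of each alternative. Depth limits Psmb9 and Nlrc5, whose intervals include the size of a call.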

Other observations

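The genes next to Psmb10 on chromosome 8 were read after its value was known. Slc12a4 (105943590 to 105966149), a potassium chloride cotransporter that lies beyond Lcat, had 579 counts in NT and 1640 in IL-4 (log2 ratio 1.47, interval 1.34 to 1.61). Lcat, between them, had 2 and 12 counts. On the other side Ctrl had 2 counts in each library, and Pskh1 and Edc4 had log2 ratios of -0.11 and -0.24. Next to Nlrc5, Cpne2 (94532674 to 94570529) had 716 counts in NT and 364 in IL-4 (interval of the log2 ratio -1.19 to -0.82). The other neighbours examined there were not called, with log2 ratios of 0.02 for Nup93, 0.05 for Herpud1, 0.30 for Psme3ip1 and -0.24 for Rspry1, and 9330175E14Rik had 5 counts in each library. These values are given with no test of whether neighbours move together.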
